A study of Mus musculus with 36 samples.

Results

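The uptake and carriage of fatty acids, retinol and cholesterol by absorptive cells of the gut was followed along the mouse intestine through 6 genes, Fabp1, Fabp2, Rbp2, Scarb1, Cd36 and Slc27a4. They were chosen by symbol, as all probe sets annotated to 1 of these 6 gene symbols and to no other gene. This gave 6 genes of 15964 named on the arrays and 11 probe sets of 36701 tested, of which array set A held 8, array set B held 2 and array set C held 1. Cd36 had 3 probe sets, Fabp1, Rbp2 and Scarb1 had 2 each, and Fabp2 and Slc27a4 had 1 each. Tissue came from male mice of the outbred stock Hsd:ICR(CD-1), aged 8 weeks and fed standard chow, with no other treatment or genetic change in any group. The 4 groups were duodenum (the first few centimetres after the stomach), jejunum (the middle of the small intestine), ileum (its end, before the caecum) and the whole colon, each as 3 pools of 10 mice. Total RNA of whole segments was hybridised to the 3 array sets, so muscle, vessels and immune cells contributed RNA along with the epithelium, and fewer cells of a type cannot be told apart from less RNA per cell.

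Dietary triglyceride is split in the gut lumen, and the fatty acids and monoglycerides enter the enterocyte across its brush border. Scarb1 encodes the scavenger receptor SR-B1, which binds lipoproteins and takes part in cholesterol uptake, and Cd36 encodes a membrane glycoprotein that binds long-chain fatty acids. Slc27a4 encodes FATP4, a fatty acid transport protein that also joins fatty acids to coenzyme A. Inside the cell, the liver-type (Fabp1) and intestinal-type (Fabp2) fatty acid binding proteins carry fatty acids through the cytosol, and Rbp2 encodes the cytosolic protein that binds retinol and retinal for esterification into chylomicrons. The small intestine is where these lipids are mainly absorbed, and bile acids are recovered in the ileum.

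Of the genes with a promoter in the RefSeq table used (build GRCm38.p6; 5 of the 6 genes matched), 3 are shown here, because Fabp1 and Rbp2 had nearly the same profile over the samples while Fabp2 had another. Each sequence is the 250 bases before the annotated start of the gene, on the gene's strand. The window of Fabp1 lies at chr6:71199629-71199878, that of Rbp2 at chr9:98490287-98490536 and that of Fabp2 at chr3:122894822-122895071, all on the plus strand. Capitals mark every match, on either strand, to 1 of 5 motifs. These were the TATA box as TATAAA, a nuclear receptor half-site as TGACCT, an HNF1 half-site as GTTAAT, a CDX site as TTTATG and the site of GATA factors as AGATAA.
Fabp1: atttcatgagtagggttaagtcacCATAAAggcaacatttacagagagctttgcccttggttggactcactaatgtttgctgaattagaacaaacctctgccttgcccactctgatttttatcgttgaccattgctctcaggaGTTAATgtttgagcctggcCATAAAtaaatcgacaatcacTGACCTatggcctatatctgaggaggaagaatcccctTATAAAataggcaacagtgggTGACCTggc
Rbp2: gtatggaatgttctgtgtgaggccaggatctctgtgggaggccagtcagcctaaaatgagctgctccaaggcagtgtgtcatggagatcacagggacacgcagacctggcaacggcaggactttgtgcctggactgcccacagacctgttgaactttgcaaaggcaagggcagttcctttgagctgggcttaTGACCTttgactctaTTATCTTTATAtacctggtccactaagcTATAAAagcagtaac
Fabp2: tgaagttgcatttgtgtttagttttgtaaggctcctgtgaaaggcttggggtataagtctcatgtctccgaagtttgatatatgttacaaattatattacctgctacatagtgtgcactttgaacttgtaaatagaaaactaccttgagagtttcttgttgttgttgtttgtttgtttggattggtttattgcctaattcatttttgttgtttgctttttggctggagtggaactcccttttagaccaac
The Fabp1 window held TATAAA from 30 to 25 bases before the start, TGACCT from 67 to 62 and from 9 to 4, GTTAAT from 107 to 102, and TTTATG on the minus strand from 226 to 221 and from 88 to 83. The Rbp2 window held TATAAA from 15 to 10, and on the minus strand from 38 to 33, where it shared a base with a minus-strand AGATAA from 43 to 38, and TGACCT from 58 to 53. None of the 5 motifs was found in the 250 bases of Fabp2. Of the matched windows not shown, that of Cd36 held 1 TGACCT and 1 TTTATG, and that of Slc27a4 held 1 TTTATG. Whether motifs go with the profiles was not tested. Among 27025 promoter windows of the same length, 13% held TATAAA, 13.8% TGACCT, 6.52% GTTAAT, 11.1% TTTATG and 10.3% AGATAA. These matches describe the letters of the windows only.

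The arrays were of similar brightness. Median intensity was 48.7 to 75.2 units on array set A, 85.7 to 110.2 units on array set B and 85.45 to 104.5 units on array set C. The signal of 18S ribosomal RNA was low in 4 samples (jejunum 2 and 3, ileum 1 and 3), which had 80.1 to 684.5 units on array set A. It was high in the other 8, which had 2712 to 10416 units. For actin the signal at the 3' end over that at the 5' end, which rises as RNA degrades, was 1.41 to 1.84 in duodenum, 1.28 to 1.55 in jejunum, 1.14 to 1.20 in ileum and 1.30 to 1.43 in colon on array set A. Since 18S class and RNA integrity moved in part with segment, results were also computed with 18S class as a blocking factor and within the high class. The part of RNA integrity in the results was not tested. All 9 measured enterocyte markers of 10 listed lay above the array median in every sample, and their summed intensity was 31350 to 34598 units in duodenum, 32125 to 37436 in jejunum, 35438 to 41517 in ileum and 29520 to 35154 in colon. The list held Vil1, Cdx1, Cdx2, Krt20, Epcam, Cdh1, Lgals4, Cdhr5, Espn and Myo1a. Whether these mark absorptive cells apart from the rest of the epithelium was not tested.

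Of the 6 genes, 5 differed among the segments, and Cd36 did not pass the test in any comparison. Fabp1 and Rbp2 were high in duodenum and jejunum, lower in ileum and near the array background in colon. By mean intensity, Slc27a4 was highest in jejunum, Scarb1 in duodenum and Fabp2 in ileum. Fabp2 did not pass the test between ileum and duodenum (0.64, adjusted p = 0.245), nor in any alternative setting. Its rise from jejunum to ileum was called in 15 of 24 alternatives. These include leaving out single duodenal or colon pools, which cannot change the size of that difference. The call was lost without jejunum pool 3 and without any 1 of the ileal pools. The rise of Slc27a4 from duodenum to jejunum lost its call with the ribosomal RNA class as a blocking factor (1.19, adjusted p = 0.0977). Of the 11 probe sets, 8 were called for any difference among the 4 segments, where 8.82% of all probe sets were called, at an adjusted p below 0.05 in limma's moderated F test on log2(intensity + 16), with Benjamini-Hochberg adjustment over all 36701 probe sets. A gene below is described by its brightest probe set on array set A, which all 6 have.

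**Figure D1:**
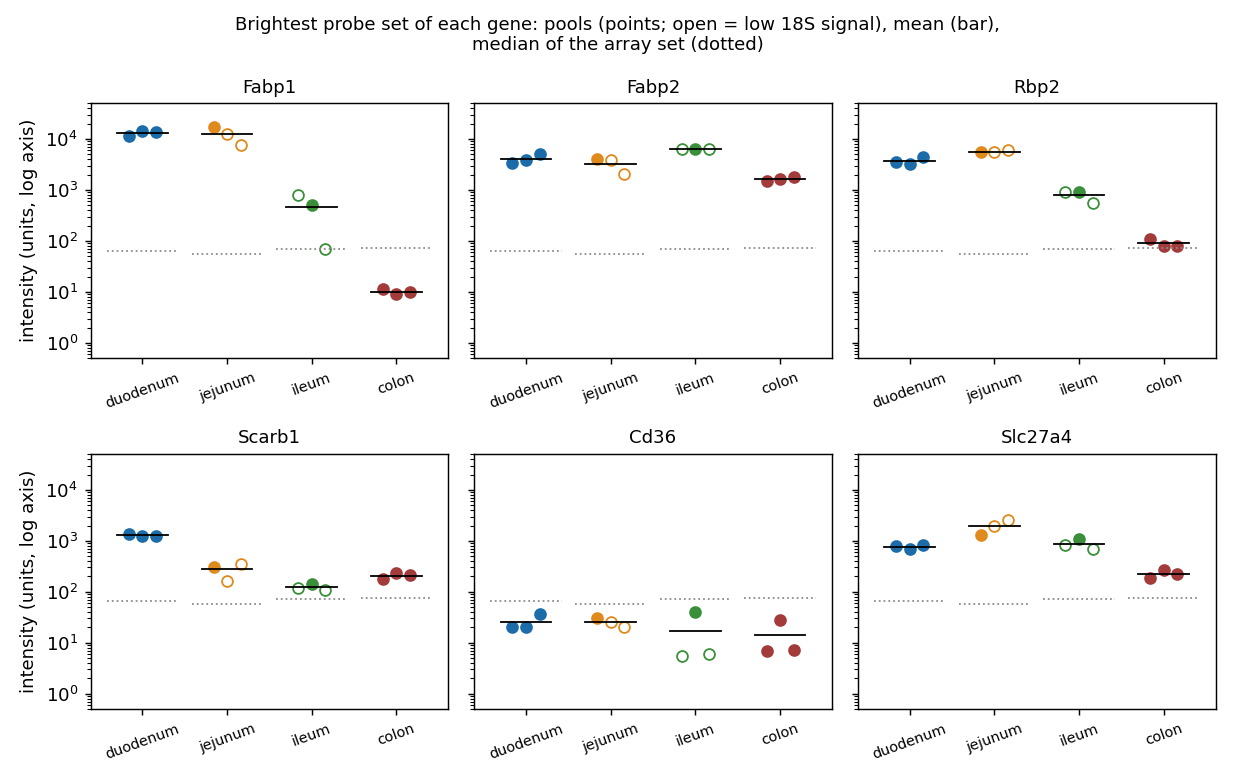
Intensity (units, log axis) of the brightest probe set of each of the 6 genes in the 3 pools of each segment, with filled points for samples of high and open points for samples of low 18S signal, bars for the segment means and dotted lines for the median of the array set. Fabp1 and Rbp2 drop at the ileum and again at the colon, Fabp2 peaks in ileum, Scarb1 in duodenum and Slc27a4 in jejunum, and Cd36 stays below the dotted line in all 12 samples.

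Between jejunum and duodenum, 3 of the 11 member probe sets were called, 1 higher and 2 lower, where 0.924% of all probe sets were called (0.343% higher, 0.580% lower). Between ileum and jejunum, 6 were called, 1 higher and 5 lower, against a background of 2.78% (1.61% higher, 1.17% lower). All 5 called between colon and ileum were lower in colon, where 3.28% of all probe sets were called and 1.72% were called lower. Ileum was lower than duodenum for 6 probe sets (background 1.83%, of which 0.970% lower), all of them of Fabp1, Rbp2 or Scarb1. Colon was lower than duodenum for 7 (background 5.99%, of which 2.65% lower) and lower than jejunum for 5 (background 9.19%, of which 3.38% lower). Counted by gene, 2 of 6 were called in jejunum minus duodenum, 5 in ileum minus jejunum and 4 in colon minus ileum. The gene counts were 3 in ileum minus duodenum, 5 in colon minus duodenum and 4 in colon minus jejunum. No member was called higher in ileum than in duodenum (background 0.858%), or higher in colon than in duodenum (3.34%), jejunum (5.81%) or ileum (1.55%). Over the 6 genes, the median log2 difference was -0.06 for jejunum minus duodenum, -1.08 for ileum minus jejunum and -1.88 for colon minus ileum, beside -0.06, 0.06 and 0.02 over all probe sets. The ranges of the 3 pools did not overlap for 5, 7 and 7 of the 11 probe sets in these comparisons, where 14.1%, 16.5% and 18.8% of all probe sets did not overlap.

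**Figure D2:**
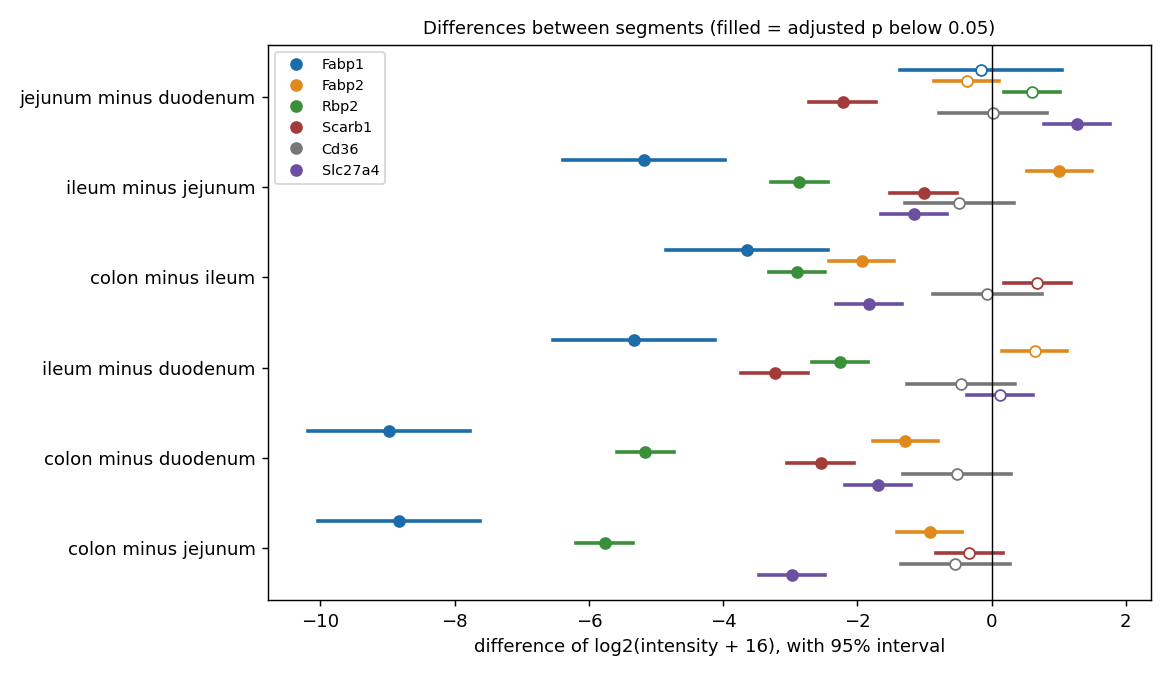
Difference of log2(intensity + 16) between segments (horizontal axis) for the brightest probe set of each gene in the 6 pairs of segments, with 95% intervals and filled points where the adjusted p was below 0.05. Fabp1 lies farthest to the left in the comparisons with colon, where its level was below the array median and the fitted size depends on the offset (-10.21 to -7.48 in colon minus duodenum), whereas every Cd36 interval crosses 0.

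Among the membrane proteins, Scarb1 was highest in duodenum. Its intensity was 1347.6, 1237.8 and 1270.8 units in the 3 duodenal pools (1285 ± 56.3, SD, n = 3), 310, 166.5 and 350.5 in jejunum (276 ± 96.7), 118.8, 143.2 and 107.6 in ileum (123 ± 18.2), and 178.3, 230.6 and 213.9 in colon (208 ± 26.7). Every duodenal pool lay above every other sample, every ileal pool lay below every pool of the other segments, and jejunum and colon overlapped because jejunum pool 2 was low. Scarb1 fell by 2.22 on the log2 scale from duodenum to jejunum (SE 0.232, adjusted p = 7.36e-05), and was lower than in duodenum by a log2 difference of -3.23 in ileum (adjusted p = 5.72e-07) and of -2.55 in colon (adjusted p = 3.09e-06). From jejunum to ileum it changed by -1.01 (adjusted p = 0.0293). Colon minus ileum was 0.68 (adjusted p = 0.171) and colon minus jejunum -0.33 (adjusted p = 0.519), so in the order duodenum, jejunum, colon, ileum only the first pair of neighbours passed the test. The step from jejunum to ileum was not called without the pool number 1 or 3 of either segment: the difference was -0.90 without jejunum pool 1 (adjusted p = 0.0691), -0.82 without jejunum pool 3 (0.139), -0.99 without ileum pool 1 (0.0903) and -0.93 without ileum pool 3 (0.131). It was also lost with the replicate number as a block (adjusted p = 0.0501), without the intensity trend (0.0660), with arrays of the 2 segments only (0.179) and within the high 18S samples (-1.03, adjusted p = 0.223), and colon minus ileum was called when jejunum pool 2 was left out (0.68, adjusted p = 0.0406).

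The second Scarb1 probe set, on array set B, had intensities of 321.4, 96.9 and 261.8 units in duodenum and of 12 to 42.2 in the 9 other samples, all of these 9 below their array medians. Its differences had the same direction as those of the first probe set in duodenum against each other segment, at -2.03 for jejunum (adjusted p = 0.0485), -2.61 for ileum (0.00444) and -2.47 for colon (0.00268). The call for jejunum stood in 5 of 23 alternative settings. It was lost when any 1 of the 12 samples except duodenum pool 2 was left out, with an adjusted p between 0.0564 (without ileum pool 2) and 0.171 (without jejunum pool 3) and a difference between -2.08 and -1.72. The duodenal pools also carried exocrine pancreas RNA: the summed intensity of 6 measured pancreatic markers of 7 listed was 74221 to 77021 units there, and 564 to 2110 in all other samples. Of these 6 markers, 5 lay above the array median in each duodenal pool and 2 or 3 elsewhere. The part of pancreatic RNA in the duodenal level of Scarb1 was not tested.

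Cd36 was dim in all segments. The brightest of its 3 probe sets had 20.1, 20.6 and 36.3 units in duodenum, 31.1, 26 and 20.5 in jejunum, 5.4, 40.8 and 6 in ileum, and 6.9, 28.2 and 7.3 in colon. The ranges of all segments overlapped, and ileum pool 2 and colon pool 2 were the high ones of their groups. None of the 36 values of the 3 probe sets lay above the median of its array set, so none was clearly above the general background of the arrays. The second probe set on array set A lay between 0.7 and 15.5 units. The one on array set B had 38.3, 47.7 and 2.3 units in colon and 3.1, 6.6 and 1.9 in ileum, with an overlap through colon pool 3.

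No Cd36 probe set was called between any of the 6 pairs of segments in limma's test, and 1 of these 18 differences had an unadjusted p below 0.05 (colon minus ileum on array set B, a difference of 1.01 with an adjusted p of 0.339). For the brightest probe set the adjusted p was 0.517 to 0.993. Its 95% interval for ileum minus jejunum ran from -1.29 to 0.33 and for colon minus duodenum from -1.33 to 0.29. Every value of this probe set lay below the array median, where the fitted size depends on the offset. These intervals therefore set no bound on a change in the Cd36 transcript. Cd36 is also expressed in capillary endothelium, fat cells and macrophages. The summed intensity of 9 endothelial markers was 766 to 1122 units over all samples. That of 6 measured adipocyte markers of 8 was 1058 to 1402 units in colon against 281 to 541 in the other segments, and that of 8 macrophage markers was 1622 to 3681 units. Of the adipocyte markers, 4 were called higher and 1 lower in colon than in duodenum, where 3.34% and 2.65% of all probe sets were. The counts were the same against jejunum (5.81% and 3.38%), and 4 higher and none lower against ileum (1.55% and 1.72%).

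Slc27a4 was highest in jejunum. The intensity was 796.7, 680.4 and 839.4 units in duodenum (772 ± 82.3), 1327.5, 1966.4 and 2587.7 in jejunum (1961 ± 630.1), 821.6, 1063 and 678.5 in ileum (854 ± 194), and 188.4, 270.6 and 225.8 in colon (228 ± 41.2). Every jejunal pool exceeded every pool of duodenum and ileum, which overlapped, and all colon pools were lowest. The log2 difference was 1.28 for jejunum minus duodenum (SE 0.230, adjusted p = 0.0122) and -1.16 for ileum minus jejunum (adjusted p = 0.0135), whereas ileum minus duodenum was 0.12 (adjusted p = 0.914, 95% interval -0.37 to 0.62). Colon was lower than ileum by a log2 difference of -1.82 (adjusted p = 1.46e-04), than duodenum by -1.70 (adjusted p = 2.00e-04) and than jejunum by -2.98 (adjusted p = 4.19e-07).

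The 2 jejunal pools with low 18S signal were the 2 highest samples of Slc27a4. In ileum the order was the reverse, with 821.6 and 678.5 units in the low 18S pools and 1063 in the high one. All duodenal pools were of the high class, so segment and 18S class cannot be fully told apart in jejunum minus duodenum. With 18S class as a blocking factor, jejunum minus duodenum was 1.19 with an adjusted p of 0.0977, so the call was lost. Within the high 18S samples the difference was 0.77 for jejunum minus duodenum (adjusted p = 0.372) and -0.32 for ileum minus jejunum (adjusted p = 0.843), with 1 jejunal and 1 ileal sample in that class. Among the low 18S samples alone, a setting added after the data were seen, ileum minus jejunum was -1.57 and stayed called (adjusted p = 0.0276). Jejunum minus duodenum was 1.19 without duodenum pool 2 (adjusted p = 0.0764), 1.25 without jejunum pool 2 (0.0529) and 1.06 without jejunum pool 3 (0.0700). Ileum minus jejunum was -0.93 without jejunum pool 3 (0.0692), -1.14 without ileum pool 1 (0.0528) and -1.004 without ileum pool 3 (0.0853). The 3 differences against colon stayed called under every alternative that was run.

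Among the cytosolic carriers, Fabp1 showed the widest range. Its intensity was 11583.8, 14111.1 and 13921.7 units in duodenum (13206 ± 1408), 17310.1, 12647.2 and 7597.1 in jejunum (12518 ± 4858), 786.2, 505.2 and 68 in ileum (453 ± 362), and 11.4, 9 and 10.1 in colon (10.2 ± 1.20). Duodenum and jejunum overlapped, every ileal pool lay below both, and every colon pool lay below the ileum. Ileum pool 3 and all 3 colon pools were below the median of the array set (71 units in ileum, 74 in colon), so the colon level is not above the general background. The mean in jejunum was 27.6 times that in ileum on the linear scale. Ileum minus jejunum was -5.18 on the log2 scale (95% interval -6.39 to -3.97, adjusted p = 1.15e-04), ileum minus duodenum -5.33 (adjusted p = 4.28e-05), colon minus ileum -3.65 (adjusted p = 0.00111) and colon minus duodenum -8.98 (adjusted p = 4.29e-08). Jejunum minus duodenum was -0.15 (SE 0.565, adjusted p = 0.961). The size of the ileal step varied with single pools: without ileum pool 3, the dim one, ileum minus jejunum was -4.20, ileum minus duodenum -4.35 and colon minus ileum -4.63. Without ileum pool 1, the brightest, they were -5.83, -5.98 and -3.0004. All of these stayed called.

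Because the colon level of Fabp1 was so low, the fitted differences to colon depended on the offset added before the logarithm: colon minus duodenum was -10.21 with an offset of 1 and -7.48 with one of 64, and colon minus ileum -4.76 and -2.43. With the colon put at its array median of 74 units as a bound, the mean intensity was at least 178-fold higher in duodenum and at least 169-fold higher in jejunum than in colon. The sign of jejunum minus duodenum turned to 0.40 within the high 18S samples, since jejunum pool 1, of the high class, was the brightest jejunal pool and pools 2 and 3 the dimmer. Among the low 18S samples alone, ileum minus jejunum was -5.24 with an adjusted p of 0.0523, which missed the threshold. Fabp1 is the main fatty acid binding protein of liver, and of 6 liver markers 0 or 1 lay above the array median in each sample, with a summed intensity of 86.1 to 236 units.

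The second Fabp1 probe set, also on array set A, was dim, at 43, 96.6 and 91.1 units in duodenum, 83.3, 24.5 and 5.9 in jejunum, 5.1 to 8.5 in ileum and 14 to 20.4 in colon. Its order differed from that of the first in that the ileum lay below the colon, with both segments under the array median. Only ileum minus duodenum passed the test (-1.97, adjusted p = 0.0316). That call was lost with 18S class as a blocking factor (-1.38, adjusted p = 0.226), with the replicate number as a block (-1.97, 0.0581) and within the high 18S samples (-1.95, 0.118). It was also lost without duodenum pool 2 (-1.80, adjusted p = 0.129), duodenum pool 3 (-1.83, 0.123), ileum pool 1 (-1.91, 0.110), ileum pool 2 (-1.97, 0.0769) or ileum pool 3 (-2.02, 0.102). Without jejunum pool 1, jejunum minus duodenum was called at -1.58 (adjusted p = 0.0359). Colon minus duodenum was not called (-1.47, adjusted p = 0.0673) but was called in 8 of 23 alternatives, among them the 18S block (-1.47, 0.0362), the high 18S samples (-1.47, 0.0317), centred arrays (-1.63, 0.0230) and quantile normalization (-1.58, 0.0368). The call was also made without duodenum pool 1 (-1.77, 0.0460), jejunum pool 1 (-1.47, 0.0126) or jejunum pool 3 (-1.47, 0.0313).

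Rbp2 followed the same course as Fabp1 with less spread between pools. The intensity was 3586, 3246 and 4389 units in duodenum (3740 ± 587), 5500.4, 5453.4 and 6019.5 in jejunum (5658 ± 314), 898.4, 901.3 and 546.7 in ileum (782 ± 204), and 109.4, 79.9 and 78.2 in colon (89.2 ± 17.5). No 2 segments overlapped, with jejunum highest, then duodenum, ileum and colon, and the colon pools were just above the array median of 74 units. The top neighbours, jejunum and duodenum, differed by 0.60 on the log2 scale, which did not pass the test (SE 0.198, adjusted p = 0.219). Ileum minus jejunum was -2.86 (adjusted p = 1.47e-06), colon minus ileum -2.90 (adjusted p = 1.98e-07), ileum minus duodenum -2.26 (adjusted p = 5.38e-06), colon minus duodenum -5.16 (adjusted p = 1.63e-10) and colon minus jejunum -5.76 (adjusted p = 4.92e-11).

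A second Rbp2 probe set on array set C gave the same 5 calls. Its intensity was 902.1, 758.7 and 551 units in duodenum, 907, 1416.3 and 1025 in jejunum, 227.4, 163.4 and 179.3 in ileum, and 25.7, 23.3 and 11 in colon. The segments again did not overlap, although jejunum pool 1 was barely above duodenum pool 1, and the colon pools lay below the array median. Ileum minus jejunum was -2.44 (adjusted p = 0.00101) and colon minus ileum -2.53 (adjusted p = 2.59e-04). Within the high 18S samples the array set C value of ileum minus jejunum was -2.36 with an adjusted p of 0.299, and ileum minus duodenum was -2.04 with one of 0.128, so both calls were lost. The 5 calls of the brighter probe set stood in every alternative that was run.

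Fabp2 differed from Fabp1 and Rbp2 in the ileum. Its intensity was 3436.2, 3873.5 and 5070.3 units in duodenum (4127 ± 846), 4031.7, 3838.7 and 2021.2 in jejunum (3297 ± 1109), 6430.1, 6286.9 and 6399.2 in ileum (6372 ± 75.4), and 1512.5, 1671.4 and 1804.6 in colon (1663 ± 146). Every ileal pool was above every other sample, every colon pool below, and duodenum and jejunum overlapped, with jejunum pool 3 low. Ileum minus jejunum was 1.01 on the log2 scale (95% interval 0.53 to 1.50, adjusted p = 0.0269), while ileum minus duodenum was 0.64 (adjusted p = 0.245). Jejunum minus duodenum was -0.37 (SE 0.227, adjusted p = 0.621). Colon was lower than ileum by -1.93 (adjusted p = 6.97e-05), than duodenum by -1.29 (adjusted p = 0.00213) and than jejunum by -0.92 (adjusted p = 0.0170).

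Fabp2 remained far above the array median in colon, at 1663 units against a median of 74, where Fabp1 was at 10.2. The 2 values come from different probe sets, so they are not set against each other as amounts. The ileal rise of Fabp2 over jejunum was not called without jejunum pool 3 (0.69, adjusted p = 0.0761), ileum pool 1 (1.01, 0.0837), ileum pool 2 (1.02, 0.0524) or ileum pool 3 (1.01, 0.0987). It was 0.64 within the high 18S samples (adjusted p = 0.530), 1.20 within the low ones (adjusted p = 0.117), a setting added after the data were seen, and 0.74 with arrays centred on their medians (adjusted p = 0.141). Colon minus jejunum was not called without jejunum pool 1 (-0.74, 0.0656), jejunum pool 2 (-0.78, 0.0797), colon pool 1 (-0.85, 0.0741) or colon pool 2 (-0.93, 0.0524), nor after quantile normalization (-0.65, 0.120). The falls of Fabp2 from ileum and from duodenum to colon stayed called under every alternative.

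**Figure D3:**
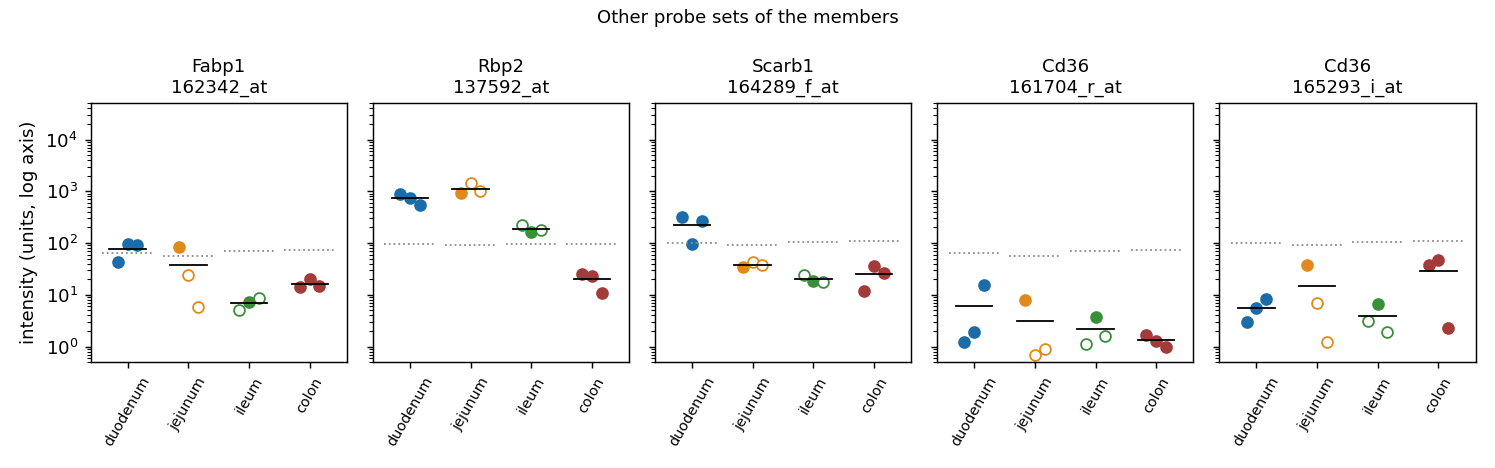
Intensity (units, log axis) of the other 5 probe sets of the 6 genes in the 3 pools of each segment, with filled and open points for high and low 18S signal, bars for segment means and dotted lines for the median of the array set. The Rbp2 probe set repeats the fall at ileum and colon, Scarb1 is brightest in duodenum, and both Cd36 probe sets lie under the dotted line.

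Smooth muscle markers were brightest in colon. The summed intensity of 7 smooth muscle markers was 24102 to 28124 units in colon, against 4052 to 5196 in duodenum, 4286 to 7343 in jejunum and 8008 to 10034 in ileum. The summed enterocyte markers in colon overlapped those in duodenum and jejunum. They lay below those in ileum (29520 to 35154 against 35438 to 41517 units), where 2 of the 9 markers were called lower in colon and 1 higher. The part of muscle RNA in the low colon levels of Fabp1, Fabp2, Rbp2 and Slc27a4 was not tested, nor was its part in Scarb1, which was lower in colon than in duodenum only.

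**Figure D4:**
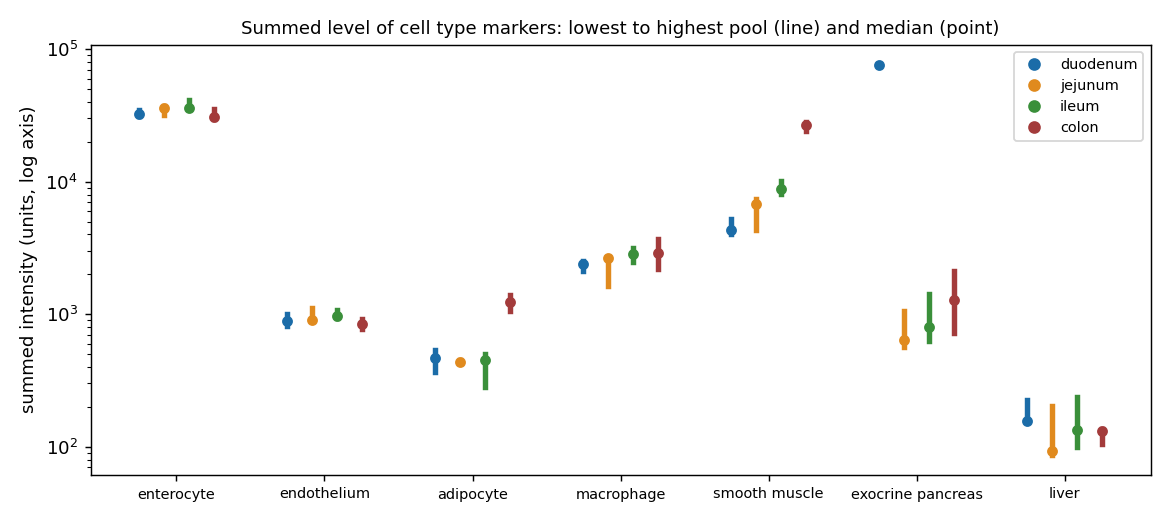
Summed intensity (units, log axis) of the markers of 7 cell types or tissues, with a line from the lowest to the highest pool and a point at the median for each segment. Exocrine pancreas stands out in duodenum at 74221 to 77021 units, smooth muscle and adipocyte markers in colon, while enterocyte markers lie between 29520 and 41517 units in all samples.

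Likeness between profiles was described by Pearson's r of log2(intensity + 16) over the 12 samples of array set A, among probe sets with a segment mean above the array median. The coefficients mostly reflect the 4 segment means, and the samples share arrays and scaling. Fabp1 was most like Apoc2 (0.992), an apolipoprotein that activates lipoprotein lipase, then Fbp1 (0.978), an enzyme of gluconeogenesis, and Slc2a2 (0.978), the basolateral glucose transporter. Rbp2 stood at rank 6 in that order with r = 0.976, out of 6517 candidates. Rbp2 itself was most like Apoc2 (0.988), Arg2 (0.986) and Fbp1 (0.984).

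Slc27a4 was most like Slc7a8 (0.989), a basolateral amino acid transporter, Tysnd1 (0.983), a peroxisomal protease, and Nr1h3 (0.981), the oxysterol receptor LXR alpha. Its r with Rbp2 was 0.888 and with Fabp1 0.796. Scarb1 was most like Cuzd1 (0.958), S100g (0.954) and Pnliprp1 (0.942). Cuzd1 and Pnliprp1 are made by the exocrine pancreas and S100g is the duodenal calcium-binding protein, and Scarb1 had r = 0.610 with Fabp1. Fabp2 was most like Sowaha (0.931), Sesn1 (0.923) and Tbx3 (0.922), and its r with Fabp1 was 0.415. For Cd36 the highest were H2-K2 (0.884), Dad1 (0.854) and Ift46 (0.826), at a level below the array median where such coefficients rest on dim signal.

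The genes that work with the 6 members were described from 6 lists by role, each gene by 1 probe set. Over all probe sets, the shares called were 0.924%, 2.78% and 3.28% and the medians -0.06, 0.06 and 0.02 for jejunum minus duodenum, ileum minus jejunum and colon minus ileum, and no list was tested against them. Of the other fatty acid binding proteins, 7 of 8 were measured, and 2 rose from jejunum to ileum while none fell, with a median log2 difference of 0.62. Fabp6, the ileal bile acid binding protein, was at 31.3 ± 23.0 units in duodenum, 49.2 ± 10.1 in jejunum, 10664 ± 1998 in ileum and 116 ± 13.0 in colon (n = 3 each). Its ileum minus jejunum difference was 7.35 (adjusted p = 4.07e-09) and its colon minus ileum difference -6.33 (adjusted p = 1.46e-09). Fabp5, the epidermal-type binding protein, also rose from jejunum to ileum (2.39, adjusted p = 0.0169). From ileum to colon, 2 of the 7 fell, Fabp6 and Scp2, a sterol carrier protein (-0.82, adjusted p = 0.0158).

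Of the fatty acid transport proteins and acyl-CoA synthetases besides Slc27a4, 10 of 12 were measured. From jejunum to ileum 1 rose and 2 fell, and from ileum to colon none rose and 2 fell, with medians of 0.20 and 0.29. In colon minus jejunum, 4 were called higher and 2 lower in colon (median 0.30), where 5.81% and 3.38% of all probe sets were. Acsl5, an acyl-CoA synthetase of the enterocyte, was at 4207 ± 626 units in duodenum, 4700 ± 709 in jejunum, 2235 ± 497 in ileum and 372 ± 23.2 in colon, with differences of -1.08 (adjusted p = 0.00358) and -2.52 (adjusted p = 2.84e-07) at the last 2 steps. Slc27a2, a fatty acid transport protein with very-long-chain acyl-CoA synthetase activity, fell at the same steps by differences of -1.57 (adjusted p = 0.0231) and -1.99 (adjusted p = 0.00266). Acss1, a mitochondrial acetyl-CoA synthetase, was lower in jejunum than in duodenum (-1.77, adjusted p = 2.88e-04) and higher in ileum than in jejunum (1.16, adjusted p = 0.00759).

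Of the sterol receptors and transporters besides Scarb1 and Cd36, 10 of 14 were measured, and none was called from duodenum to jejunum or from jejunum to ileum in limma's test, where 3 and 4 of them had an unadjusted p below 0.05. From ileum to colon 1 rose and 2 fell. The 2 that fell were Abcg5 (-4.20, adjusted p = 1.49e-07) and Abcg8 (-3.59, adjusted p = 7.88e-04), the partners in the transporter that returns sterols to the lumen. Abcg5 was at 2768 ± 825 units in duodenum, 4934 ± 1806 in jejunum, 2245 ± 335 in ileum and 109 ± 32.2 in colon. Cav1, the caveolin of endothelium, fat and muscle, rose (1.82, adjusted p = 3.03e-04). The summed smooth muscle and adipocyte markers were brightest in colon, and no endothelial marker was called between colon and ileum. The part of these tissues in the rise of Cav1 was not tested.

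Of the genes of triglyceride re-esterification and lipid droplets, 17 of 19 were measured. From duodenum to jejunum 1 rose and none fell (median 0.32), from jejunum to ileum none rose and 5 fell (median -0.51), and from ileum to colon 1 rose and 5 fell (median -0.13). Mogat2, which rebuilds diglyceride from absorbed monoglyceride, was at 1328 ± 259 units in duodenum, 2263 ± 797 in jejunum, 1004 ± 57.1 in ileum and 80.5 ± 6.47 in colon. Its differences were -1.09 from jejunum to ileum (adjusted p = 0.0197) and -3.40 from ileum to colon (adjusted p = 1.97e-07). Dgat1, which adds the last fatty acid, changed by -0.84 (adjusted p = 0.0371) and -2.94 (adjusted p = 2.29e-07). Cideb, a lipid droplet protein of lipoprotein-secreting cells, was the gene that rose from duodenum to jejunum (0.82, adjusted p = 0.0331), and it fell at both later steps (-1.07, adjusted p = 0.00293, and -1.59, adjusted p = 2.58e-05).

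Of the retinoid genes besides Rbp2, 21 of 25 were measured. From jejunum to ileum 1 rose and 4 fell (median -0.23), and from ileum to colon 2 rose and 2 fell (median 0.08). Retsat, which saturates retinol, was at 1078 ± 154 units in duodenum, 1397 ± 171 in jejunum, 189 ± 64.3 in ileum and 279 ± 63.6 in colon, with -2.82 from jejunum to ileum (adjusted p = 4.53e-06). Rdh7, a retinol dehydrogenase, fell by differences of -1.37 (adjusted p = 0.0108) and then -3.32 (adjusted p = 9.64e-07). Lrat, which esterifies the retinol that Rbp2 presents and was named after its values were seen, was at 205 ± 37.2 units in jejunum and 40.4 ± 24.4 in ileum (-2.04, adjusted p = 0.0396). Rbp4, the plasma retinol carrier, rose from ileum to colon (2.51, adjusted p = 4.97e-04).

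Of the transcription factors linked to enterocyte lipid genes, 21 of 24 were measured. From jejunum to ileum 2 rose and 4 fell (median 0.08), and from ileum to colon 2 rose and 4 fell (median -0.22). Creb3l3, a factor of liver and gut that acts on lipid genes, was at 10146 ± 799 units in duodenum, 14215 ± 3187 in jejunum, 3242 ± 1040 in ileum and 446 ± 100.2 in colon. Its differences were -2.15 from jejunum to ileum (adjusted p = 9.03e-05) and -2.79 from ileum to colon (adjusted p = 1.26e-06). Gata5, a GATA factor of the small intestine, fell from ileum to colon (-3.59, adjusted p = 2.84e-07) and changed by 0.10 from jejunum to ileum (adjusted p = 0.935). Nr1h3 changed by -0.84 (adjusted p = 0.0464) and -1.36 (adjusted p = 0.00112), and Cdx1, a caudal homeobox factor, rose by 0.69 (adjusted p = 0.0327) and 0.63 (adjusted p = 0.0448). With 18S class as a blocking factor, the counts of called genes from jejunum to ileum were the same in 5 of the 6 lists, and the sterol list went from none to 1. Jejunum and ileum had the same mix of 18S classes, so the block could not change the size of these differences. The counts therefore do not test their dependence on 18S class. From duodenum to jejunum, the called genes of the triglyceride (1), retinoid (1) and transcription factor (2) lists all lost their calls under that block, Cideb among them.

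**Figure D5:**
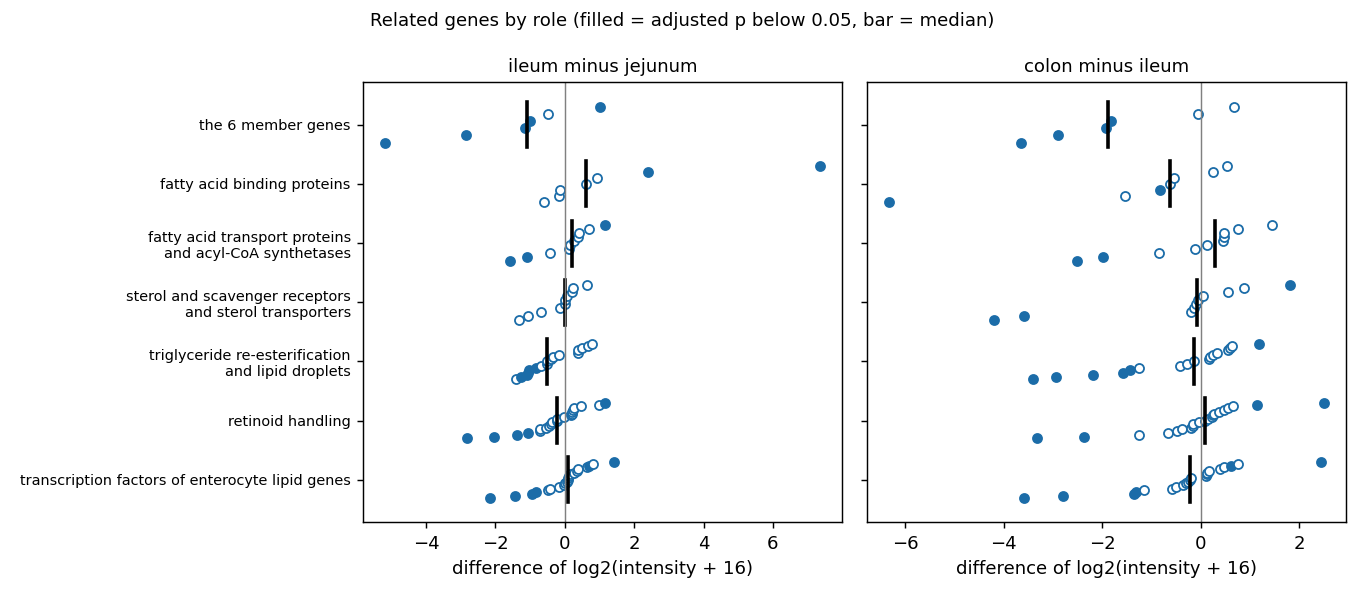
Difference of log2(intensity + 16) for each measured gene of the 6 role lists and for the 6 member genes, in ileum minus jejunum and in colon minus ileum, with filled points where the adjusted p was below 0.05 and a bar at the median of each row. The 6 member genes have medians of -1.08 and -1.88, and Fabp6 stands apart at 7.35 and -6.33.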

How the data were processed

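Expression was measured in 12 samples (4 segments, 3 pools each) on 36 arrays. The deposited values are intensity on a linear scale that the authors scaled to a common mean, per the values (trimmed mean 199.9 to 200.0 units), and the software is not given in the sources used here. From them log2(intensity + 16) was computed, 66 control probe sets per array set were left out, and limma 3.58.1 (R 4.3.3) was fitted to each array set over all 12 samples with 1 mean per segment and an intensity trend. P-values (2-sided) of 36701 probe sets were adjusted together (Benjamini-Hochberg), called below 0.05. They measure only the spread between pools, and precision is limited by how few arrays there are. The annotation gave 1 symbol to 29131 probe sets, several to 724 and none to 6846. Each gene was represented by its brightest probe set on array set A, else B, else C; in each list up to 4 genes with the smallest F-test p could be named, and the 3 genes most like each member. The members and lists were chosen with earlier results of these data known. The array of duodenum 3 on set C is named jejunum in its source field; its title decided. On simulated data for jejunum minus duodenum (36701 probe sets), the test recovered 15.3% of shifts of log2 1 and 65.3% of those of log2 2, and 4.72% of its calls were false. Alternatives changed the offset, scaling, filter, variance trend, samples or block.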

Additional observations from a re-analysis of the deposited data

How the results depend on the processing

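No difference that was called for a member gene changed sign under any of 24 alternatives, and under each of the 23 planned ones 19 to 23 of the 23 called differences of the representative probe sets stayed called. Leaving out array duodenum 3C kept all 23. For jejunum minus duodenum 3 member probe sets were called, against 1 when 18S class was a blocking factor, 1 within high 18S samples and 1 to 3 with single samples left out. For ileum minus jejunum 6 were called, against 2 within high 18S samples, 3 with arrays of the 2 segments only, 3 within low 18S samples (chosen after seeing the data) and 3 to 6 with single samples left out. For ileum minus duodenum 6 were called, against 3 within high 18S samples. The fits within an 18S class, on 2 segments or without a sample use fewer samples, whereas the 18S block uses all 12. The replicate block gave 2 for jejunum minus duodenum, 5 for ileum minus jejunum, 5 for colon minus ileum, 5 for ileum minus duodenum, 7 for colon minus duodenum and 5 for colon minus jejunum. Among representative probe sets that block ended only the call of Scarb1 in ileum minus jejunum. For Fabp2, ileum minus jejunum was also not called without the intensity trend (adjusted p = 0.0766) or with arrays of the 2 segments only (0.117). The latter also ended it for Slc27a4 (0.0714), whose jejunum minus duodenum was not called without the trend (0.0582). Same-numbered samples deviated together (r above 0.1) in 5, 5 and 4 of 18 pairs on array sets A, B and C, and different-numbered ones in 9, 3 and 8 of 36. On array set B, 10 of 12 samples correlated best with their own number (5 and 6 on A and C). These counts do not settle whether same-numbered samples belong together, and the numbers were not taken as pairs in the main fit. Centring arrays on their medians turned the all-probe-set median from -0.06 to 0.066 in jejunum minus duodenum, from 0.06 to -0.11 in ileum minus jejunum and from 0.07 to -0.12 in colon minus jejunum.

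Differences that were not called and changed sign were as follows, and the cause was not tested. For Fabp1, jejunum minus duodenum became 0.018 with centred arrays, 0.46 with the 18S block and 0.40 within high 18S samples, and ran from -0.42 to 0.17 with single samples left out. Its dim probe set gave 0.15 for the same difference within high 18S samples, -0.092 with the 18S block for colon minus ileum, and -0.98 to 0.11 with single samples left out for colon minus jejunum. With single samples left out, colon minus ileum of the dim Scarb1 probe set ran from -0.058 to 0.40, and ileum minus duodenum of Slc27a4 from -0.042 to 0.28. For the brightest Cd36 probe set, ileum minus jejunum became 0.27 within high 18S samples, ileum minus duodenum 0.095 with the 18S block and 0.47 within high 18S samples, and colon minus ileum 0.011 with an offset of 1. With single samples left out, its jejunum minus duodenum ran from -0.071 to 0.20 and its colon minus ileum from -0.37 to 0.40. The second Cd36 probe set on array set A gave 0.054 with the 18S block and 0.16 within high 18S samples for jejunum minus duodenum, and 0.046 within low 18S samples for ileum minus jejunum. With single samples left out it ran from -0.34 to 0.10 for jejunum minus duodenum, from -0.15 to 0.11 for ileum minus jejunum, from -0.39 to 0.047 for ileum minus duodenum and from -0.21 to 0.045 for colon minus jejunum. The Cd36 probe set on array set B gave 0.45 and 0.070 for ileum minus duodenum and -0.037 and -0.41 for colon minus jejunum, in each case with the 18S block and within high 18S samples, and -0.12 to 0.70 for jejunum minus duodenum with single samples left out. Signal limits Cd36, the colon level of Fabp1 and the dim probe sets of Fabp1 and Scarb1, which mostly lay near or below the array median. The dim Scarb1 probe set was above it in duodenum pools 1 and 3 (321.4 and 261.8 units against 101.3).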
